A study of Mus musculus with 7 samples.

Results

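Ccl17, Ccl22, Ccr4 and Ccr7 are a chemokine pair, its receptor, and a second chemokine receptor that guides dendritic cells and T cells. They were taken by symbol from the UMI tables of 7 mouse brain tumour libraries and are 4 of the 19415 genes listed there. Ccl17 and Ccl22 are secreted ligands of Ccr4, a receptor carried by regulatory, type 2 and other memory T cells. Myeloid cells, dendritic cells above all, are the textbook source of both ligands, and interleukin 4 acting through Stat6 is a known inducer of Ccl17. Ccr7 binds the lymph node chemokines Ccl19 and Ccl21, and mature dendritic cells, naive and central memory T cells and B cells use it to reach the node. Ccl19 and Ccl21a are not in the tables used here, so only the receiving side of the Ccr7 axis could be described.

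The tumours are atypical teratoid rhabdoid tumours (ATRT), a childhood brain cancer driven by loss of Smarcb1. All animals were Rosa26-creERT2::Smarcb1 fl/fl mice, in which a ubiquitous promoter drives the inducible Cre, and in all of them Cre was induced before birth by 1 dose of 50 mg/kg tamoxifen given to the mother 6.5 days post coitum. Of the libraries, 5 are labelled MYC and 2 SHH, after the tumour subgroup. MYC 1 and MYC 5 came from the basal cerebrum at 12 and 27 weeks of age, MYC 2 and MYC 4 from the trigeminal nerve at 19 and 21 weeks, and MYC 3 from the lateral cerebellum at 19 weeks. SHH 1 and SHH 2 came from the striatum or subventricular zone at 14 and 16 weeks, so subgroup and tumour site cannot be told apart. Titles of MYC 2 and MYC 3 share an animal number. They were summed as 1 animal in every test, which left 4 MYC and 2 SHH animals. No tumour-free tissue is among these samples.

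Sorted 7-AAD-negative cells, live and not enriched for any lineage, were profiled by droplet sequencing of transcript 3′ ends with unique molecular identifiers (UMIs). Levels are given as UMIs of the gene per 1000000 UMIs of the cells named (CPM). After quality and doublet filters 21899 cells remained, between 183 in MYC 3 and 13392 in MYC 5, with median UMIs per cell between 1716 in MYC 4 and 9346 in MYC 3. At most 76 barcode sequences were shared by any 2 libraries. MYC 5 supplied most of the cells and MYC 4 was the shallowest library, so results that rest on either are also given without it. Each file lists only genes seen in at least 3 of its barcodes, and a missing gene was taken as 0. Ccl22 and Ccr4 are not listed for MYC 2 and MYC 3, so these 0s may hide up to 2 barcodes each. Intervals are 95% intervals for counting error only.

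Cells were assigned to lineages from raw UMIs of marker genes, none of which is 1 of the 4 genes described. There were 2771 T cells and 986 dendritic cells, and 725 barcodes were set aside as conflicting. These met the rules of more than 1 lineage, or the T cell rule with 50 or more MHC class II UMIs per 10000. Genes not used for the gates followed them. The regulatory T cell checkpoint gene Ctla4 had 625, 217 and 220 CPM in Foxp3+ T cells of MYC 4, MYC 5 and SHH 1, against 233, 36.0 and 73.3 CPM in their other T cells. Csf1r, the receptor macrophages and microglia depend on, had 40.6 and 15.4 CPM in mature dendritic cells of MYC 5 and SHH 1, against 340.0 and 904 CPM in their macrophages and microglia. The number of mature dendritic cells was 0 in MYC 1 and MYC 2, 2 in MYC 3, 41 in MYC 4, 168 in MYC 5, 21 in SHH 1 and 2 in SHH 2, which sets how many animals each comparison could use.

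On mouse assembly GRCm38 the ligand genes are neighbours on chromosome 8, both on the plus strand: Ccl22 at chr8:94745590-94751699 and Ccl17 at chr8:94810453-94812036. Cx3cl1, another chemokine gene, lies between them, 20309 bases from the end of Ccl22 and 28025 bases from the start of Ccl17. Ccr4 is at chr9:114490316-114504916 and Ccr7 at chr11:99144196-99155077, both on the minus strand, and all 4 genes are protein coding. Because the ligands parted in the data below (Ccl22 was concentrated in mature dendritic cells, Ccl17 was spread wider), their RefSeq promoters on GRCm38.p6 are shown. Each runs from 250 bases before to 50 bases after the RefSeq start, which for Ccl22 is not the GENCODE start printed above. Capitals mark a Stat6-type motif (TTCNNNNGAA) in Ccl17 and kappaB-type motifs (GGGNNNNNCC, read on the minus strand) in Ccl22.
Ccl17, chr8:94810203-94810502, plus strand: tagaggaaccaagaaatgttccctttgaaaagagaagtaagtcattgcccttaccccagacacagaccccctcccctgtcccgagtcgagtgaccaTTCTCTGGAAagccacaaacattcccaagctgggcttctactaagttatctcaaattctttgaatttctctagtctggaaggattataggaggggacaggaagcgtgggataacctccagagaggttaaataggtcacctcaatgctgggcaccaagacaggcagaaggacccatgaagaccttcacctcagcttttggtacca
Ccl22, chr8:94745434-94745733, plus strand: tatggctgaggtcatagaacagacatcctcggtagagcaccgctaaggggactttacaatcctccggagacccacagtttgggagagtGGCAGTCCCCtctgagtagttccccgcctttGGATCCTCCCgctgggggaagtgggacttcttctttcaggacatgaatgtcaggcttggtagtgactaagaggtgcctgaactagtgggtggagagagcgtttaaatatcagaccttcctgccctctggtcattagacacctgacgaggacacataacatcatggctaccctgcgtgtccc
The Stat6-type match begins 154 bases before the Ccl17 start and reads the same rule on both strands. The kappaB-type matches begin 162 and 131 bases before the Ccl22 start. Neither promoter held the other's motif, and the Ccr4 promoter held neither. Of 32851 RefSeq promoters of this length, 6.95% held the Stat6-type letters and 50.8% the kappaB-type letters on either strand. A match is only a description of the letters.

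The 4 genes differed in where their UMIs lay. Of 4328 Ccl17 UMIs in the analysed cells, mature dendritic cells held 14.9% and other dendritic cells 28.4%, macrophages and microglia 11.2% and non-haematopoietic cells with vascular and mural cells 13.9%. Of 1452 Ccl22 UMIs, mature dendritic cells alone held 43.3% and other dendritic cells 2.41%. Of 123 Ccr4 UMIs, T cells held 61% and dendritic cells of every kind 0.813%. Of 3934 Ccr7 UMIs, mature dendritic cells held 41.5% and T cells 9.68%. The shares varied by library. Non-haematopoietic, vascular and mural cells held 97.3% of the Ccl17 UMIs in MYC 2, 98.2% in MYC 3 and 57.8% in MYC 5, but 0.863% in MYC 4, 1.20% in SHH 1 and 10.4% in SHH 2. Mature dendritic cells held 43.6% of the Ccr7 UMIs in MYC 4 and 43.7% in MYC 5, but 20.8% in SHH 1 and 27.5% in SHH 2. Other haematopoietic cells held the largest Ccr7 share in SHH 1 (43.8%) and SHH 2 (47.1%). In SHH 1, T cells held 65 Ccr7 UMIs and mature dendritic cells 59.

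**Figure D1:**
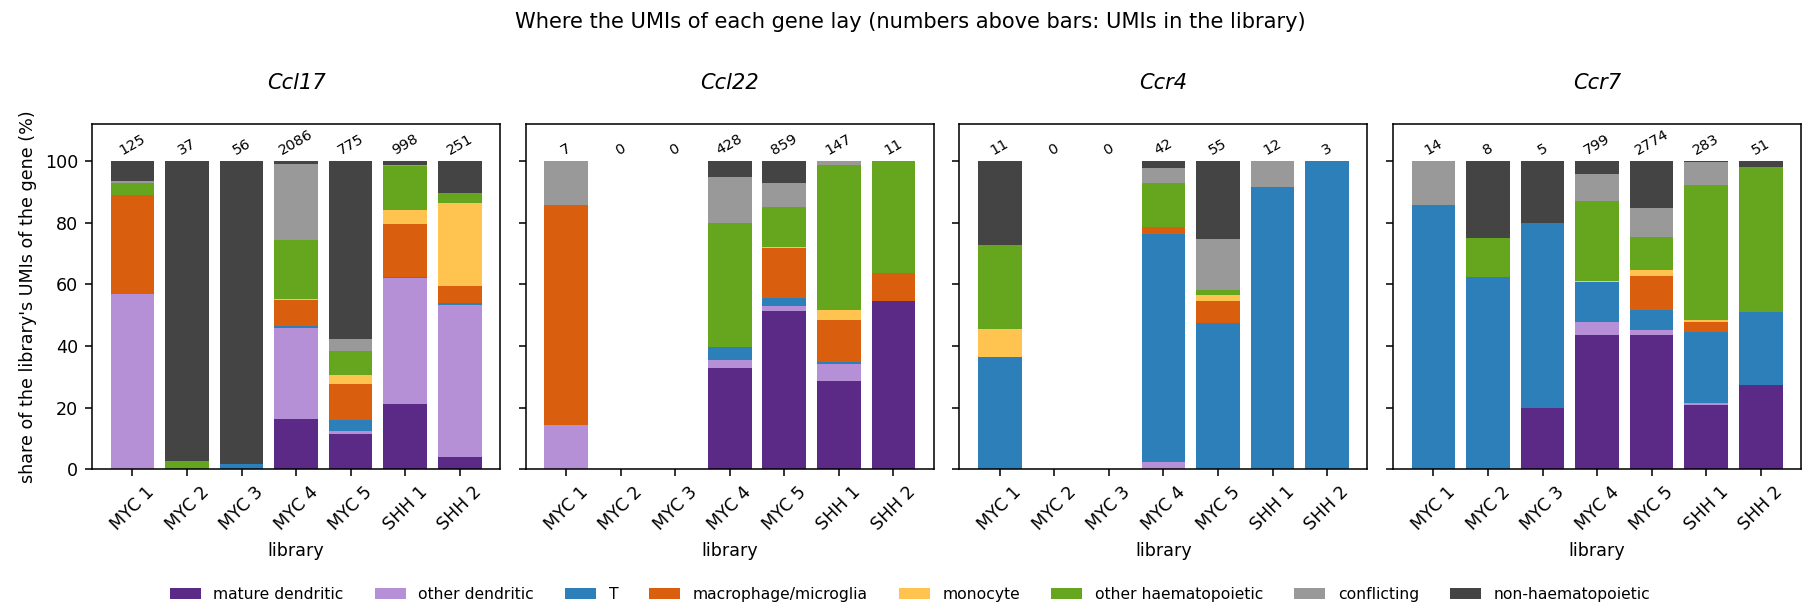
Share (%) of each gene's UMIs that lay in each class of cells, 1 bar per library, with the number of UMIs above the bar; other haematopoietic includes every immune gate not named in the key, and non-haematopoietic includes vascular and mural cells. The largest part of each Ccl22 and Ccr7 bar in MYC 4, MYC 5, SHH 1 and SHH 2 is either mature dendritic or other haematopoietic cells; Ccr4 bars are led by T cells, and the Ccl17 bars of MYC 2, MYC 3 and MYC 5 by non-haematopoietic cells.

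UMIs of the 4 genes were also spread unevenly over single cells. Ccl17 had 10 or more UMIs in 88 of its 807 positive cells, and these 88 cells held 71.2% of all Ccl17 UMIs. They were found in many gates, among them 15 mature dendritic, 14 Cd209a dendritic, 11 Xcr1 Clec9a dendritic and 8 macrophage or microglia cells, and 10 were conflicting barcodes. The highest single cell, in the Cd209a dendritic gate of MYC 4, held 257 Ccl17 UMIs. Ccl22 reached at most 38 UMIs in a cell, and cells with 10 or more held 32.7% of its UMIs. Ccr7 reached 42, and such cells held 44.6%. Ccr4 never exceeded 2 UMIs in a cell, and 111 of its 117 positive cells held exactly 1. The concentration of Ccl17 itself differed by library: cells with 10 or more UMIs held 87.2% of the UMIs in MYC 4, 83.0% in SHH 1 and 79.7% in SHH 2, but 14.6% in MYC 5 and 0% in MYC 3.

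Ccl17 was high in the dendritic cells of 4 libraries and low in those of MYC 5. In all dendritic cells, Ccl17 stood at 625 CPM in MYC 1 (10 cells), 762 CPM in MYC 4, 42.0 CPM in MYC 5, 1758 CPM in SHH 1 and 1611 CPM in SHH 2. MYC 5 held the most dendritic cells (441) and stood below the counting intervals of the other 4. In mature cells, those that carry the Fscn1 and Ccr7 migration programme, the levels were 2548 CPM in MYC 4, 95.05 CPM in MYC 5 and 3257 CPM in SHH 1. In the Cd209a subset, the monocyte-derived or type 2 conventional kind, they were 1620 CPM in MYC 4, 15.8 CPM in MYC 5 and 1652 CPM in SHH 1. In the cross-presenting Xcr1 Clec9a subset they were 426 CPM in MYC 4, 2.55 CPM in MYC 5 and 526 CPM in SHH 1. MYC 5 was thus the lowest of these 3 libraries in each subset, below the counting intervals of the other two.

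One or a few cells set several of these levels. In the Cd209a gate of MYC 4, 257 of 409 Ccl17 UMIs came from 1 cell, and in that of SHH 2, all 104 UMIs of 5 cells came from 1 cell. Of the 71 Ccl17 UMIs in dendritic cells of MYC 1, 68 came from 2 cells. Counting intervals do not cover this unevenness between cells. The Cd207 H2-M2 gate, a dermal- or Langerhans-like signature, had 5846 CPM in 8 cells of SHH 1 with 91 of 148 UMIs in 1 cell, against 6.78 CPM in 131 cells of MYC 5. Plasmacytoid dendritic cells, the interferon-producing subset, held 2 Ccl17 UMIs in 162 cells of MYC 4.

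Ccl22 was more uniform between libraries and narrower between subsets. Mature dendritic cells had 1058 CPM in MYC 4, 469.9 CPM in MYC 5 and 648 CPM in SHH 1, and 6 UMIs in the 2 mature cells of SHH 2. Other dendritic cells had 10.7 CPM in MYC 4, 10.2 CPM in MYC 5 and 27.7 CPM in SHH 1. No Ccl22 UMI was found in the Cd209a gates of MYC 5, SHH 1 or SHH 2, and 6 UMIs in that of MYC 4. Ccr7 had the same narrow range within dendritic cells, with 2631 CPM in mature cells of MYC 4, 1293 CPM in MYC 5 and 911 CPM in SHH 1, against 29.4, 28.4 and 6.935 CPM in the other dendritic cells of those libraries. For both genes the lowest mature level was above the highest level of the other dendritic cells.

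**Figure D2:**
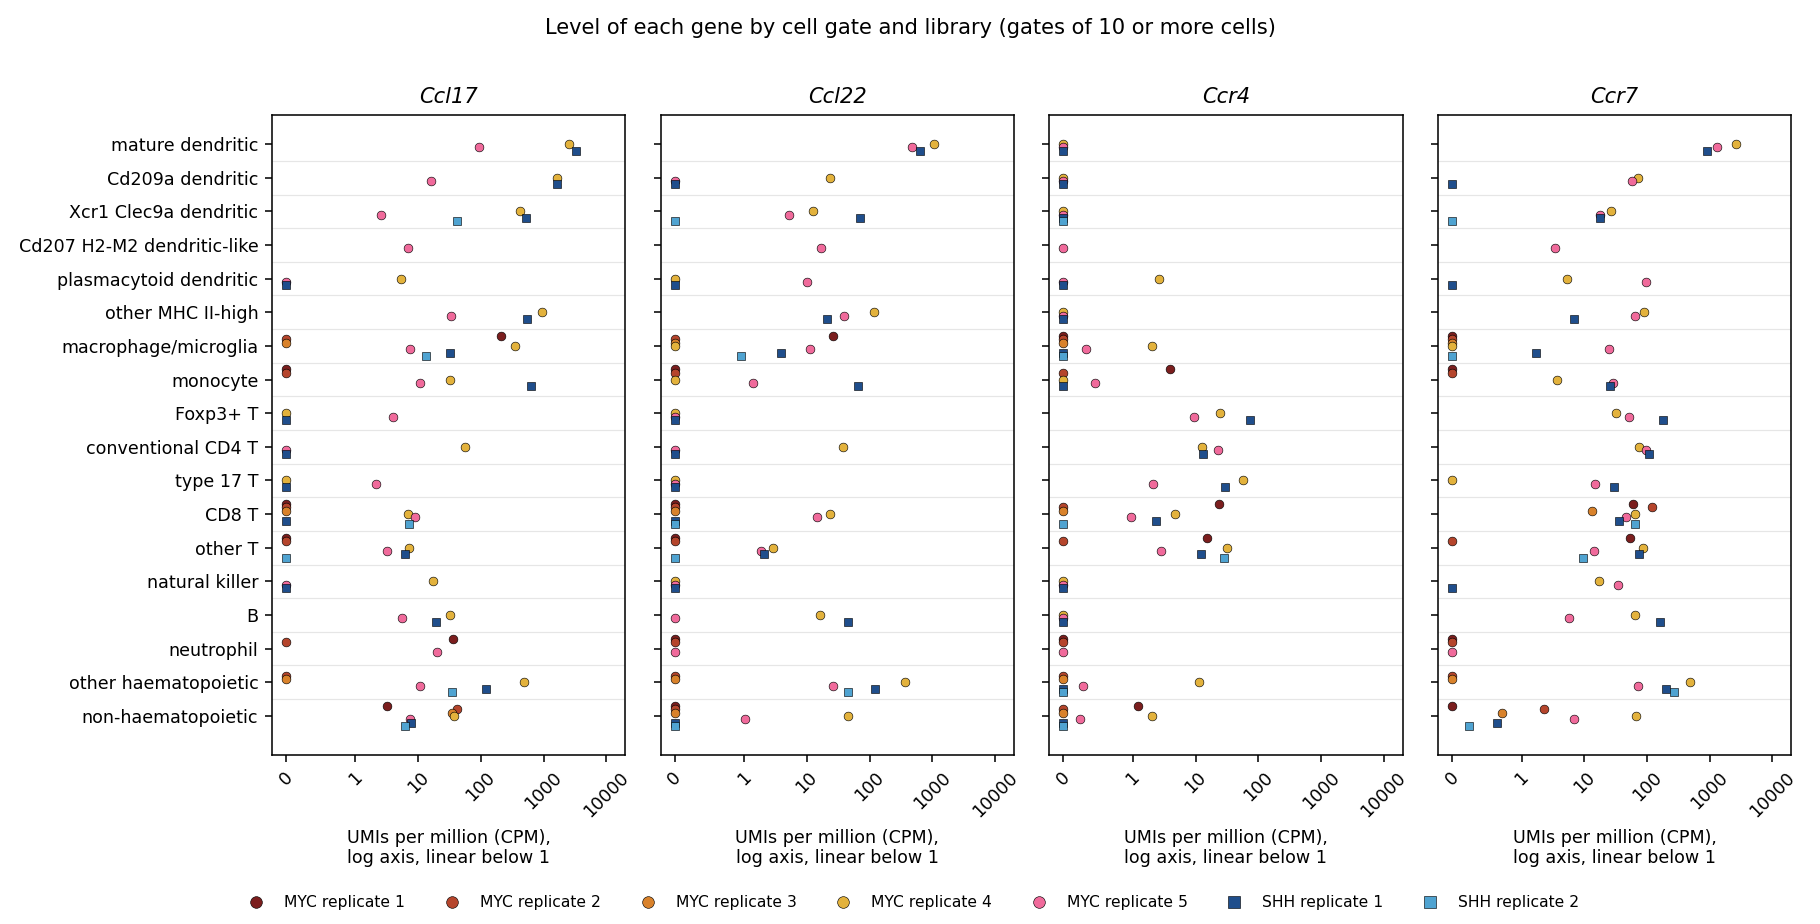
Level of each gene (CPM, log axis, linear below 1) in the gates shown, where they held 10 or more cells, 1 point per library. Innate lymphoid-like cells, mast cells and basophils, vascular and mural cells and conflicting barcodes are not shown. Ccl22 and Ccr7 points are farthest right in mature dendritic cells, Ccl17 points reach high values in several dendritic gates but not in MYC 5, and Ccr4 points above 10 CPM lie in T cell gates or in gates that rest on at most 4 UMIs.

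Counts summed per animal were compared with edgeR's quasi-likelihood test, with the animal as a block and Benjamini-Hochberg adjustment over all genes. Dendritic cells were first set against macrophages and microglia of the same tumours, in the 4 animals with at least 20 cells of each (MYC 4, MYC 5, SHH 1 and SHH 2). Levels in these tests are scaled by TMM factors, so they differ slightly from the CPM above. Ccl22 averaged 127 ± 55.1 CPM in dendritic cells and 4.31 ± 5.39 CPM in macrophages and microglia (SD, n = 4 each), a log2 difference of 4.71 ± 0.40 (SE; adjusted p = 0.00018). Ccl17 averaged 950.1 ± 725 CPM in dendritic cells and 106 ± 173 CPM in macrophages and microglia, a log2 difference of 3.80 ± 0.90 (adjusted p = 0.0264). Ccr7 averaged 282 ± 177 CPM in dendritic cells and 7.07 ± 12.9 CPM in macrophages and microglia, a log2 difference of 5.65 ± 0.57 (adjusted p = 0.000409). Each of the 3 was higher in dendritic cells in 4 of 4 animals. Ccr4 had 1 UMI in dendritic cells and 5 in macrophages and microglia and was not tested. In the same comparison 12.1% of 8551 genes passed, 4.96% as higher and 7.15% as lower in dendritic cells.

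The Ccl17 call is the least firm of these. The SD of Ccl17 was close to its mean in dendritic cells and exceeded it in macrophages and microglia, and 156 of the 173 Ccl17 UMIs in macrophages of MYC 4 came from 1 cell. Without SHH 1 the log2 difference was 2.94 (adjusted p = 0.0899) and without SHH 2 it was 2.90 (adjusted p = 0.104), so the call was lost while the direction held.

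Genes that work with these ligands and with Ccr7 moved in both directions. Of 9 tested partners of the Ccr4 ligands, 2 were higher in dendritic cells: Dpp4, a peptidase that trims chemokines, by a log2 difference of 3.0, and Irf4, a transcription factor of type 2 dendritic cells, by 3.17. Il4ra, the interleukin 4 receptor chain, and Csf2ra, a GM-CSF receptor chain, were lower, at -1.18 and -0.73. The median of the list was -0.10, against -0.01 over all genes. Among partners of Ccr7 and homing genes, Il7r (1.88) was higher and Klf2 (-2.02) was lower. Of 16 maturation genes 8 were higher and 0 lower, with a list median of 1.57. Among other chemokine receptors, Ccr6 was higher, and the microglial receptor Cx3cr1 (-5.45) was lower. Ccr9 was higher too, but it is a marker of the plasmacytoid dendritic gate, so that call follows from the gating.

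Within dendritic cells, mature cells were compared with the rest in MYC 4, MYC 5 and SHH 1. Ccr7 averaged 1569 ± 944 CPM in mature cells and 22.8 ± 13.6 CPM in other dendritic cells (SD, n = 3 each), a log2 difference of 6.13 ± 0.32 (edgeR adjusted p = 6.23e-10). Ccl22 averaged 691 ± 309 CPM in mature cells and 17.1 ± 10.4 CPM in the others, a log2 difference of 5.67 ± 0.39 (adjusted p = 1.18e-08). Ccl17 averaged 1767 ± 1446 CPM in mature cells and 700.1 ± 746 CPM in the others, a log2 difference of 2.18 ± 0.36 (adjusted p = 0.000387). All 3 were higher in mature cells in 3 of 3 animals. Mature cells held 0 Ccr4 UMIs, the others 1. Of 6245 genes tested 10.7% passed, 5.94% as higher in mature cells. Without MYC 4 the Ccl17 difference was 2.12 with an adjusted p of 0.0794.

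The mature gate rests on genes of the maturation programme, so genes of that programme that were not gate markers moved with it. Of 16 listed maturation genes 13 were higher in mature cells and 0 lower, with a list median of 2.76 on the log2 scale against -0.06 over all genes. Ccl5, a chemokine that attracts T cells, averaged 5959 ± 3724 CPM in mature cells and 100.1 ± 23.2 CPM in the others. Il12b, a chain of interleukins 12 and 23, averaged 333 ± 105 CPM in mature cells and 11 ± 12.5 CPM in the others. Relb, an alternative NF-kappaB subunit, and Socs2, a cytokine signalling inhibitor, were higher by 3.33 and 4.74 on the log2 scale. Of 9 tested partners of the Ccr4 ligands, Cd40 was higher (2.14) and Crlf2, the receptor of the cytokine Tslp, lower (-1.40). Among Ccr7 partners and homing genes, Tcf7 was higher (6.45, on 31 UMIs in mature cells and 1 in the others). Of 7 tested genes from the regulatory T cell list 5 were higher: Il2ra, Tnfrsf18, Tnfrsf4, Tnfrsf9 and Icos. Mature dendritic cells are known to carry some of these, and T cell RNA in these barcodes was not tested.

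**Figure D3:**
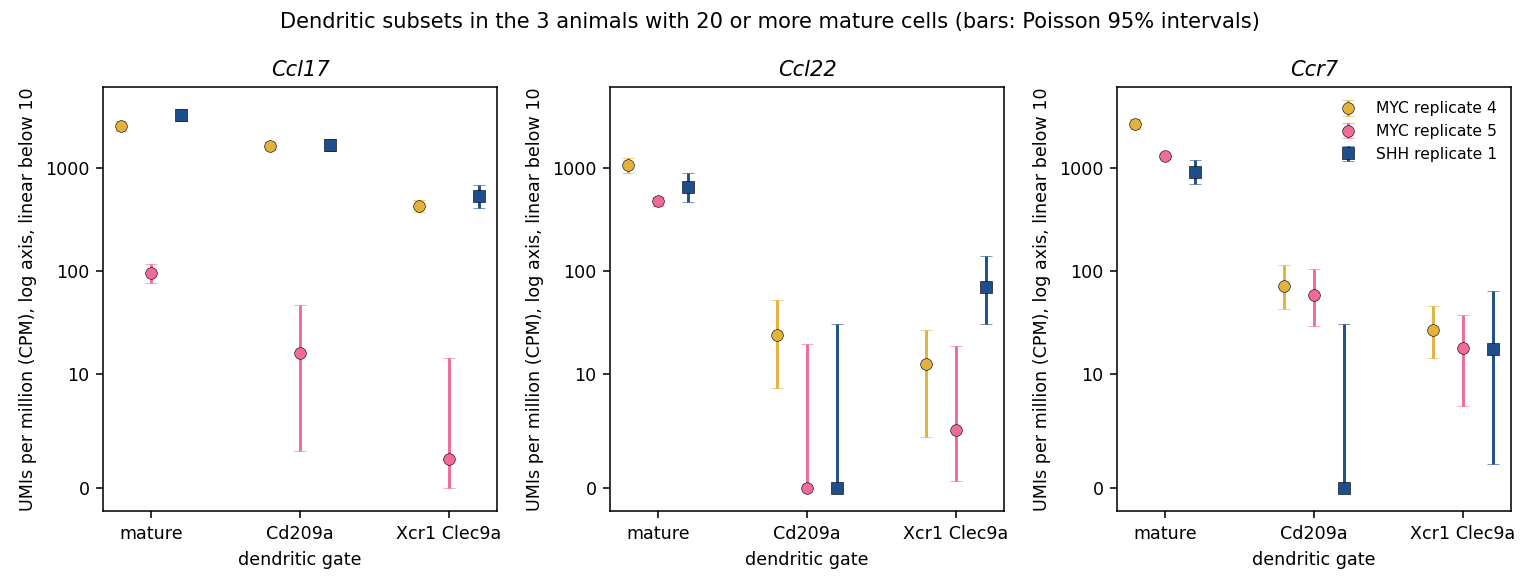
Level (CPM, log axis, linear below 10) of Ccl17, Ccl22 and Ccr7 in 3 dendritic subsets of MYC 4, MYC 5 and SHH 1, with Poisson 95% intervals. Ccl22 and Ccr7 are high in mature cells in each library, whereas Ccl17 of MYC 5 lies far below the other libraries in every subset.

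Shares of cells with a UMI are given beside the levels. In mature dendritic cells, Ccr7 was detected in 97.6% of cells in MYC 4, 74.4% in MYC 5 and 66.7% in SHH 1. Ccl22 was detected in 78.05%, 58.3% and 57.1% of the mature cells of those libraries, and Ccl17 in 46.3%, 17.3% and 47.6%. In T cells of the same libraries, given for comparison, Ccl22 was detected in 0.603%, 0.907% and 0.145% of cells and Ccl17 in 0.965%, 2.22% and 0.435%. In MYC 5, 1 CD8 T cell held 11 of the 23 Ccl22 UMIs in T cells. The part of free RNA in these shares was not tested. Median UMIs were 2776, 4272 and 2437 per mature dendritic cell and 1293, 5668 and 1286 per T cell. Thinned to 1000 UMIs per cell, mature cells had Ccl17 in 36.6% (MYC 4), 7.74% (MYC 5) and 42.9% (SHH 1), so the share in MYC 5 was also the lowest at matched depth. Thinned shares for Ccl22 were 58.5%, 32.1% and 38.1%, and for Ccr7 82.9%, 60.7% and 52.4%.

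Most mature cells with a Ccl22 UMI also had a Ccr7 UMI: 32 of 32 in MYC 4, 91 of 98 in MYC 5 and 8 of 12 in SHH 1. Ccr7 was found in most mature cells to begin with, in 40 of 41, 125 of 168 and 14 of 21, so the share among cells with Ccl22 was clearly above that of all mature cells in MYC 5 alone, and no test was made. Both ligands were detected in 17 of 41 mature cells of MYC 4, 25 of 168 in MYC 5 and 7 of 21 in SHH 1. Ccl22 without Ccl17 was seen in 15, 73 and 5 of them, and Ccl17 without Ccl22 in 2, 4 and 3. The balance of the ligands shifted between libraries: mature cells held 2.41 Ccl17 UMIs per Ccl22 UMI in MYC 4, 0.202 in MYC 5 and 5.02 in SHH 1. In Cd209a cells the ratio was 68.2 in MYC 4, and SHH 1 had 202 Ccl17 UMIs and no Ccl22 UMI. These ratios compare libraries and subsets, not transcript numbers of 2 genes, since 3′ counts may capture genes unequally.

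On the receptor side, Ccr4 was the rarest of the 4 transcripts and lay mainly in T cells. In T cells it stood at 12.8 CPM in MYC 1, 21.5 CPM in MYC 4, 3.60 CPM in MYC 5, 10.5 CPM in SHH 1 and 10.1 CPM in SHH 2, on 4, 31, 26, 11 and 3 UMIs. T cells of MYC 2 and MYC 3, 28 and 30 cells, had none. Ccr4 was detected in 3.62% of T cells in MYC 4, 2.32% in MYC 5, 1.60% in SHH 1 and 1.95% in SHH 2, against 0.481%, 0.149%, 0% and 0% of macrophages and microglia, where the Wilson intervals of the 2 SHH libraries reach 0.215% and 1.08%. Median UMIs per cell were 1293, 5668 and 1286 in T cells of MYC 4, MYC 5 and SHH 1, and 2230.5, 4039 and 2930.5 in their macrophages and microglia, so in MYC 4 and SHH 1 the higher share was found in the shallower cells. Across the 6 animals, a comparison added after the counts were seen gave 9.73 ± 8.08 CPM in T cells and 0.879 ± 1.30 CPM in all cells outside the T gate (SD, n = 6 each). The log2 difference was 4.01 ± 0.78 (edgeR adjusted p = 0.00998), and Ccr4 was higher in T cells in 5 of 6 animals. In that comparison 15.1% of 13245 genes passed, 6.18% as higher and 8.96% as lower in T cells.

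The ligands ran the other way in the same comparison. Ccl17 averaged 4.69 ± 4.4 CPM in T cells and 125 ± 195 CPM outside the T gate, a log2 difference of -3.85 ± 0.68 (adjusted p = 0.00519). Ccl22 averaged 3.01 ± 5.40 CPM in T cells and 24.65 ± 44.5 CPM outside, a log2 difference of -2.64 ± 0.46 (adjusted p = 0.00605), with an adjusted p of 0.0535 without MYC 4 and 0.147 by DESeq2. Ccr7 averaged 46.8 ± 20.5 CPM in T cells and 45.3 ± 79.8 CPM outside them, a log2 difference of 1.40 ± 0.89 that did not pass (adjusted p = 0.31). Of 11 tested partners of the Ccr4 ligands 1 was higher in T cells and 4 lower. The higher one, Ccr8, a receptor of skin-homing and regulatory T cells, differed by 4.80 on the log2 scale, and the lower ones were Csf2rb, Csf2ra, Il13ra1 and Cd40. Of 8 other chemokine receptors tested 4 were higher in T cells, led by Cxcr6, a receptor of tissue-resident T cells (6.75), and 1, Cx3cr1, was lower.

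Whether regulatory T cells carried more Ccr4 than other T cells could be tested only in MYC 4 and MYC 5, the animals with at least 20 Foxp3+ T cells. Ccr4 averaged 15.5 ± 9.55 CPM in Foxp3+ T cells (10 UMIs) and 13.1 ± 14.0 CPM in other T cells (47 UMIs; SD, n = 2 each). The log2 difference was 0.89 ± 0.65 and did not pass (edgeR adjusted p = 0.809), and the level was higher in Foxp3+ cells in 1 of the 2 animals. The comparison had 1 residual degree of freedom and few Ccr4 UMIs, and what size of difference it could detect at this count was not tested. Ccr7 averaged 39.1 ± 13.4 CPM in Foxp3+ T cells and 53.1 ± 42.2 CPM in other T cells, and its log2 difference of 0.40 ± 0.36 did not pass either (adjusted p = 0.887). That fitted difference is positive although the mean was lower in Foxp3+ cells, since the 2 animals went opposite ways: Foxp3+ T cells had 32.5 CPM against 76.5 CPM in other T cells of MYC 4, and 51.6 CPM against 21.6 CPM in MYC 5. Of 7878 genes tested 1.87% passed, 1.19% as higher and 0.673% as lower in Foxp3+ T cells.

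Genes of the regulatory T cell list did separate these gates in the same test. Of 10 tested members 9 were higher in Foxp3+ T cells and 0 lower, with a list median of 1.94 on the log2 scale against -0.08 over all genes. Tnfrsf4, a costimulatory receptor, averaged 869 ± 13.5 CPM in Foxp3+ T cells and 248 ± 97.3 CPM in other T cells, and Tnfrsf9, of the same family, 329 ± 4.76 CPM in Foxp3+ T cells and 79.8 ± 16.1 CPM in other T cells. Ikzf2, which encodes Helios, and Ctla4 were higher by 1.73 and 1.90 on the log2 scale. Of 8 other chemokine receptors Ccr6, the receptor for Ccl20, was higher (1.64 ± 0.45, adjusted p = 0.0206), and of 7 homing genes Tcf7, a naive and memory T cell factor, was lower (-1.77, adjusted p = 0.0103). None of 5 tested partners of the Ccr4 ligands passed.

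By subset, Ccr4 was at 24.4 CPM in Foxp3+ T cells of MYC 4 (3 UMIs, interval 5.02 to 71.2), 9.26 CPM in MYC 5 (7 UMIs, interval 3.73 to 19.1) and 73.25 CPM in SHH 1 (2 UMIs in 14 cells). Conventional CD4 T cells had 12.6, 22.6 and 13.4 CPM in these libraries. CD8 T cells had 4.65, 0.975 and 2.36 CPM, on 2, 1 and 1 UMIs. CD8 T cells had the lowest level of these 3 subsets in each of the 3 libraries, but its interval overlapped theirs, except against conventional CD4 T cells of MYC 5. Among all 7 libraries the CD8 T level ranged from 0 to 23.5 CPM, so it was not low in each of them. Over the 21 gates, ordered by mean over libraries, Ccr4 was highest in Foxp3+ T cells (35.6 ± 33.5 CPM), then type 17 T cells (29.6 ± 27.6 CPM). None of 13 neighbouring pairs with an SD was apart by more than both SDs.

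**Figure D4:**
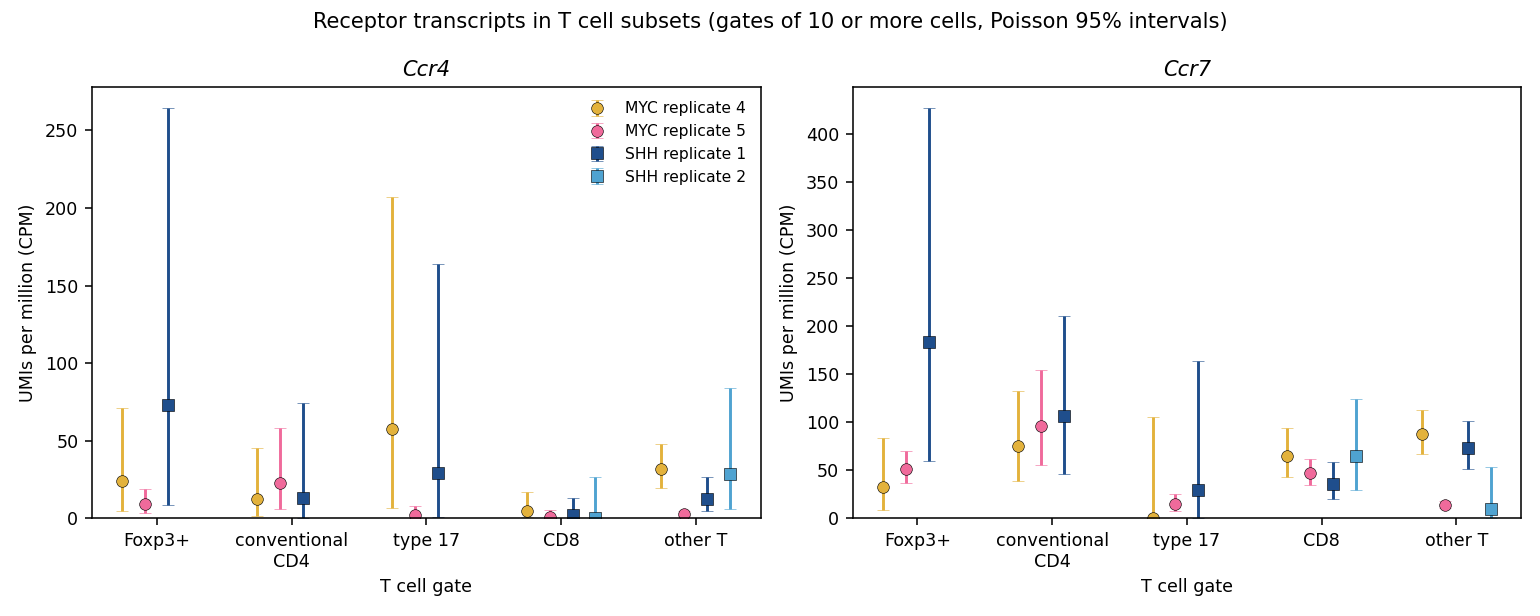
Ccr4 and Ccr7 levels (CPM) in 5 T cell gates of 10 or more cells in MYC 4, MYC 5, SHH 1 and SHH 2, with Poisson 95% intervals. Intervals of Ccr4 overlap between Foxp3+ and conventional CD4 T cells in each library, and Ccr7 is present in all 5 gates.

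Ccr7 in T cells stood at 38.4 CPM in MYC 1, 71.5 CPM in MYC 2, 29.0 CPM in MYC 3, 72.8 CPM in MYC 4, 24.8 CPM in MYC 5, 61.9 CPM in SHH 1 and 40.5 CPM in SHH 2. It was detected in 5.84% (SHH 2) to 8.77% (MYC 5) of T cells in the 4 libraries with the most T cells, against 0% to 2.95% of macrophages and microglia. Conventional CD4 T cells had 75.7 CPM in MYC 4, 96.1 CPM in MYC 5 and 107 CPM in SHH 1, and CD8 T cells 65.1, 46.8 and 35.4 CPM. B cells, which use Ccr7 to enter nodes, had 63.8, 5.59 and 161 CPM on 4, 1 and 25 UMIs. Each of these levels was below that of mature dendritic cells in the same library (2631, 1293 and 911 CPM).

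Among neighbouring pairs of the 21 gates that both had an SD, only Ccr7 had a pair apart by more than both SDs. Mature dendritic cells averaged 1612 ± 903 CPM (SD, n = 3 libraries), and other haematopoietic cells came next at 172 ± 188 CPM (n = 6). For Ccl17 none of 14 neighbouring pairs with an SD was apart by that measure: mature dendritic cells averaged 1967 ± 1659 CPM, Cd209a cells 1096 ± 936 CPM and other cells high in MHC class II 507 ± 456 CPM. Ccl22 averaged 725 ± 302 CPM in mature cells, and none of its 12 pairs with an SD was apart. Its next gate, innate lymphoid-like cells, had 129 CPM in 1 library, with all 12 UMIs in 1 cell, so the top Ccl22 pair had no SD and was not judged. Past it came other haematopoietic cells at 94.4 ± 144 CPM, apart from mature cells by more than both SDs.

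A part of the Ccr7 and Ccl22 UMIs lay in haematopoietic cells that no gate named. Among these other haematopoietic cells, 26 of 28 cells with 2 or more Ccr7 UMIs in MYC 4, 32 of 34 in MYC 5, 9 of 9 in SHH 1 and 2 of 2 in SHH 2 held a mature dendritic marker, against 7.49%, 29.2%, 13.4% and 22.2% of those without Ccr7. The mature gate asks for MHC class II transcripts. When cells with mature markers were admitted whatever their MHC class II UMIs, a choice made after the data were seen, the log2 differences between mature and other dendritic cells were 2.06 for Ccl17, 5.85 for Ccl22 and 6.08 for Ccr7, all past the threshold. In macrophages of MYC 5, 41 of 43 cells with 2 or more Ccr7 UMIs held a mature marker against 64.4% of those with none, at 1690 and 415 CPM of the summed markers. The part of doublets in these cells was not tested.

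Genes with the most similar levels over the 21 gates were named by Pearson's r of mean log2(CPM + 1), a description without a test over gates that share libraries. For Ccl17 they were Atox1 (r = 0.815), Gpd2 (0.808), Shtn1, Batf3 and Cst3, and for Ccl22 Bmp2k (0.757), Ccl17 (0.751), Insl6, Gpd2 and Specc1. Ccr7 was most like Traf1 (0.818), a TNF receptor adaptor, then Socs2, Psme2, Ssh1 and Crip1. Ccr4 was most like Tnfrsf25 (0.929), a TNF receptor of T cells, Il12rb1 (0.928), Xlr4c, Ctla4 (0.915) and Izumo1r (0.909), whose product is a surface protein of regulatory T cells. Between the genes themselves, r was 0.668 for Ccl22 with Ccr7, 0.361 for Ccl17 with Ccr7, and -0.38 for Ccl17 with Ccr4.

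Ccl17 was also found outside the immune gates, and Ccl22 there mainly in MYC 4 and MYC 5. In MYC 2, 36 of 37 Ccl17 UMIs lay in non-haematopoietic cells at 41.3 CPM, and no UMI in its dendritic cells (8 cells), T cells, macrophages or monocytes. In MYC 3, 49 of 56 UMIs lay in non-haematopoietic cells at 35.0 CPM, 6 more in vascular or mural cells and 1 in T cells. In the other libraries non-haematopoietic cells had 3.22 CPM in MYC 1, 36.8 CPM in MYC 4 (17 of 18 UMIs in 1 cell), 7.42 CPM in MYC 5, 7.78 CPM in SHH 1 and 6.23 CPM in SHH 2. T cells, which should lack the gene, had 0 CPM in MYC 1 (49 cells), 11.8 CPM in MYC 4, 3.88 CPM in MYC 5, 2.86 CPM in SHH 1 and 3.37 CPM in SHH 2. Ccl22 had no UMI in non-haematopoietic cells of 5 libraries, 22 UMIs (44.9 CPM, above Ccl17) in 3 cells of MYC 4 and 61 UMIs (1.02 CPM) in MYC 5.

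Within non-haematopoietic cells, Ccl17 in 3 MYC libraries lay mostly in cells with transcripts of Col1a2, a collagen chain of mesenchymal cells. Cells with 2 or more Col1a2 UMIs had 65.8 CPM of Ccl17 in MYC 2 (35 UMIs), 35.8 CPM in MYC 3 (49 UMIs) and 18.5 CPM in MYC 5 (380 UMIs). Cells with 0 Col1a2 UMIs had 3.28 CPM in MYC 2 (1 UMI), 0 CPM in MYC 3 and 1.32 CPM in MYC 5 (44 UMIs). The 0 of MYC 3 rests on 5 cells, against 99 cells with 2 or more Col1a2 UMIs, so that library says little about the split. MYC 1 did not share this pattern, with 1.97 CPM in cells with Col1a2 and 12.4 CPM in cells without (4 UMIs each), and in MYC 4 all 18 UMIs were in cells without Col1a2. SHH 1 had no non-haematopoietic cell with 2 or more Col1a2 UMIs and SHH 2 had 1, so the SHH libraries could not be split in this way. The collagen gene was chosen after the data were seen, and no test was made.

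**Figure D5:**
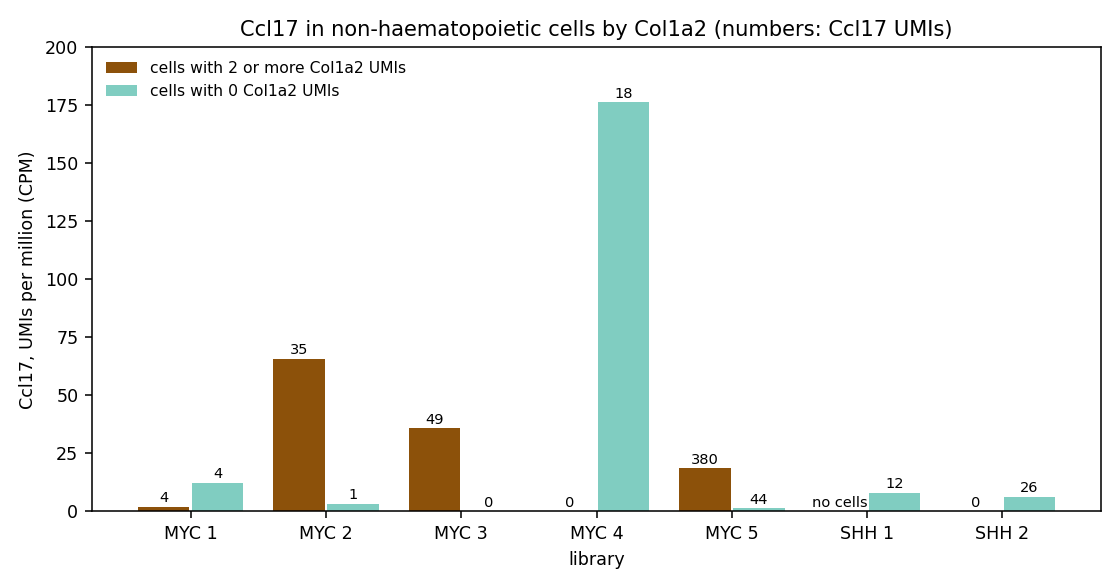
Ccl17 level (CPM) in non-haematopoietic cells with 2 or more and with 0 Col1a2 UMIs, by library, with the number of Ccl17 UMIs above each bar. Bars of cells with Col1a2 stand above those of cells without in MYC 2, MYC 5 and MYC 3 (only 5 cells without), whereas the tall bar of MYC 4 without Col1a2 rests on 18 UMIs, 17 of them from 1 cell.

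In MYC 5, 64 non-haematopoietic cells held 2 or more Ccl17 UMIs and 7240 held none. Genes were ranked by the ratio of the levels after 20 CPM was added to both. Left out were the genes described here and others, such as those whose names begin with Gm. The 5 highest in cells with Ccl17 were Spp1 (osteopontin) at 1460 CPM against 98.2 CPM, Tslp, an epithelial and stromal cytokine that acts on dendritic cells, at 1130 CPM against 201 CPM, Cited1, Ncam1 and Cx3cl1. Spp1 went the other way in MYC 2, at 0 CPM in cells with Ccl17 against 104 CPM in cells without, and in MYC 3, at 25.6 CPM against 115 CPM. Tslp stood at 18.1 CPM against 6.77 CPM in MYC 2, on 1 UMI in cells with Ccl17, and at 0 CPM against 19.4 CPM in MYC 3. Ptprc, the common leukocyte antigen, was at 3.26 CPM in cells with Ccl17 and 3.79 CPM in cells without. The non-haematopoietic gate itself asks for few UMIs of Ptprc and other leukocyte genes, so low values were set by the gate. Ccl22 was at 4.89 CPM in cells with Ccl17 and 0.913 CPM in cells without. Cx3cl1, the gene next to Ccl17 on chromosome 8, was higher in cells with 2 or more Ccl17 UMIs in each of the 3 libraries: 183 CPM against 27.7 CPM in MYC 5, 181 CPM against 50.1 CPM in MYC 2 (5 cells with Ccl17) and 120 CPM against 30.6 CPM in MYC 3 (14 cells). These cells were picked for Ccl17, so the values are a description. Smarcb1, the deleted gene, stood at 1.54 CPM in non-haematopoietic cells of MYC 5 and 31.4 CPM in its haematopoietic cells. In MYC 2 it stood at 26.4 CPM in non-haematopoietic cells and 47.9 CPM in haematopoietic cells. A 3′ tag does not test whether the deleted exon was recombined, so tumour and stromal cells were not separated.

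Ccr7 UMIs outside the immune gates lay in cells that differed in Col1a2 between MYC 4 and MYC 5. In MYC 4, 3 non-haematopoietic cells with 2 or more Ccr7 UMIs held 32 of the 33 Ccr7 UMIs there and all 22 Ccl22 UMIs. All 3 had a mature dendritic marker, and they had no Col1a2 UMI, against 526 CPM in cells without Ccr7. In MYC 5, 73 such cells had Col1a2 at 1040 CPM against 480.0 CPM in cells without Ccr7. Of these 73 cells, 45 held a mature dendritic marker (61.6%, against 36.8% of cells without Ccr7). The summed markers stood at 286 CPM against 91.8 CPM. Genes were ranked there by the ratio after 20 CPM was added to both levels. The 5 highest were Samsn1, a lymphocyte adaptor, at 139 CPM against 3.21 CPM, Pglyrp1, Igfbp4 at 1720 CPM against 241 CPM, Mgp at 650.0 CPM against 95.4 CPM and Apod at 1250 CPM against 195 CPM. Tbc1d4, Bcl2a1b and Irf8, given below, have larger plain ratios than each of these except Samsn1. Among further genes looked at after the counts were seen, Irf8, a dendritic cell factor, was at 73.3 CPM against 5.64 CPM. Bcl2a1b (116 CPM against 4.33 CPM), Tbc1d4 (82.1 CPM against 2.11 CPM) and Ccl22 (27.9 CPM against 0.716 CPM) were also higher. Samsn1, Bcl2a1b, Tbc1d4, Ccl22 and Irf8 (in 1 of the 3 cells) were higher in the MYC 4 cells with Ccr7 too. Apod (0 CPM against 2180 CPM) and Mgp (0 CPM against 284 CPM) went the other way in MYC 4. Ptprc (4.4 CPM against 3.77 CPM) and Cd74, the MHC class II invariant chain (575 CPM against 549 CPM), differed little in MYC 5. The rule of the gate keeps Ptprc low in both, so Ptprc says little on what these cells are. The part of immune RNA in these barcodes was not tested.

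MYC and SHH tumours were then compared within cell classes, a contrast in which site and subgroup are the same split. In dendritic cells of 2 MYC and 2 SHH animals, Ccl17 averaged 432 ± 551 CPM in MYC and 1626 ± 261 CPM in SHH (SD, n = 2 each), a log2 difference of -2.02 ± 1.06 (edgeR adjusted p = 1). Ccl22 averaged 164 ± 47.6 CPM in MYC and 105 ± 57.4 CPM in SHH (0.47 ± 0.48, adjusted p = 1). Ccr7 averaged 436 ± 154 CPM in MYC and 164 ± 19.3 CPM in SHH (1.29 ± 0.41, adjusted p = 0.934). No Ccl17 value of an SHH library was below that of a MYC library here, and likewise no Ccr7 value of an SHH library was above that of a MYC library. The calls were not stable: Ccl17 passed without the filter on low counts (-1.92, adjusted p = 0.000448) and without MYC 4 (-5.40, adjusted p = 4.2e-24), and Ccr7 passed without MYC 4 (1.58, adjusted p = 0.00229), where MYC 5 is the lone MYC animal and is assumed to vary like the others. Of 6220 genes 0 (0%) passed, 270 had an unadjusted p under 0.05, and DESeq2 called 16. In simulated data of this design 21% of 4-fold changes were recovered, so the size of any change is poorly bounded.

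In T cells of 4 MYC and 2 SHH animals, Ccr7 averaged 46.8 ± 23.3 CPM in MYC and 50.0 ± 18.4 CPM in SHH, a log2 difference of -0.09 ± 0.51 (edgeR adjusted p = 0.999), smaller than the spread between animals. Ccr4 had too few UMIs for the test and averaged 9.85 ± 10.4 CPM in MYC and 9.96 ± 0.99 CPM in SHH. Of 7087 genes 0 (0%) passed, 274 had an unadjusted p under 0.05, and DESeq2 called 30. Over all cells, none of the 4 genes passed: Ccl17 averaged 120 ± 202 CPM in MYC and 75.4 ± 53.1 CPM in SHH, Ccl22 24.7 ± 41.6 CPM in MYC and 9.15 ± 10.6 CPM in SHH, and Ccr7 50.4 ± 75.8 CPM in MYC and 19.9 ± 17.2 CPM in SHH. Ccr4 averaged 2.99 ± 3.87 CPM in MYC and 0.906 ± 0.641 CPM in SHH. Their adjusted p-values were 0.771 to 0.907, with 0.00751% of 13308 genes called. Without MYC 4 the differences of Ccl17, Ccl22 and Ccr7 turned negative (-1.93, -1.12 and -0.58), and totals over all cells cannot tell fewer dendritic or T cells from less RNA per cell.

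In non-haematopoietic cells, compared after the counts were seen, Ccl17 averaged 21.7 ± 18.1 CPM in MYC and 6.21 ± 0.73 CPM in SHH (1.79 ± 1.04, edgeR adjusted p = 0.359). Ccr7 averaged 18.8 ± 31.2 CPM in MYC and 0.390 ± 0.242 CPM in SHH (5.62 ± 2.70, adjusted p = 0.271), with 65.2 CPM in MYC 4. In this comparison 4.05% of 11546 genes passed, 2.02% as higher and 2.04% as lower in MYC. Genes tied to these pathways did pass. Stat6, the interleukin 4 signal transducer, averaged 19.6 ± 7.89 CPM in MYC and 0.780 ± 0.483 CPM in SHH (SD, n = 4 and 2), a log2 difference of 4.79 ± 0.74 (edgeR adjusted p = 0.0268). It was the only 1 of 6 tested partners of the Ccr4 ligands that was called. Of 10 maturation genes tested Relb, Nfkb2 and Il15ra were higher in MYC: Nfkb2 averaged 33.5 ± 9.49 CPM in MYC and 3.65 ± 0.408 CPM in SHH. The number of genes called fell to 1 without SHH 1 or without SHH 2, to 3 without MYC 5 and to 294 without MYC 1.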

How the data were processed

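Single cells of 7 tumours were profiled with the 10x Chromium 3′ kit after sorting 7-AAD-negative cells, per the labels. The authors deposited 1 table per library of raw UMI counts per gene and barcode, made with Cell Ranger 2.0.2 on mm10, per the submitters' processing notes. MYC replicate 5 and SHH replicate 1 had 2 sequencing runs, per the labels. Files held 2150925 to 111985990 UMIs in 24433 barcodes, where the series text states 24199 cells.

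Barcodes with at least 500 UMIs, at least 200 genes and at most 20% mitochondrial UMIs were kept (23938). In each library of 200 or more cells the top 0.8% per 1000 cells by Scrublet score (scanpy 1.11.5) were removed, 2039 in all, 1861 of them in MYC replicate 5. T cells had 2 or more UMIs of Cd3d, Cd3e and Cd3g, and were split by Foxp3, type 17, Cd8 and Cd4 markers. Macrophages and microglia had 20 or more C1qa, C1qb and C1qc UMIs per 10000. Mature dendritic cells had 2 or more of the markers Fscn1, Cacnb3, Il4i1, Apol7c, Nudt17 and Zmynd15 together with MHC class II UMIs. Non-haematopoietic cells met no other gate and had under 5 UMIs per 10000 of Ptprc, Laptm5, Coro1a, Tyrobp, Fcer1g and Cd52 together. Thresholds were set after the counts were seen, the genes described and the gene lists were chosen with earlier results of these data known, and cell names were rebuilt here, so they may differ from the study's.

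Sums of UMIs per animal and gate, where a gate held at least 20 cells, were tested in edgeR 4.0.16 (R 4.3.3; TMM, filterByExpr, quasi-likelihood F test, Benjamini-Hochberg threshold 0.05 over all genes tested). Comparisons of gates within animals carried the animal as a block, because both gates came from the same library. DESeq2 1.42.0 was an alternative. SEs of log2 differences were derived from the F statistic. Samples of a group were separate animals, apart from MYC replicates 2 and 3. Text beside each list names at most 4 of its members, those with the smallest p, and list genes shown beyond that were picked after their values were seen. Tested on simulated counts, 16-fold changes were recovered in 92% to 94% of cases for comparisons of gates and in 66% to 78% for MYC against SHH. Before the change each gene had the same mean in every animal and the spread of the overall trend. Genes that vary more than the trend are not covered by these rates. CPM intervals are exact Poisson. No sample was excluded from the levels. Some members of the gene lists are not reported here.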

Additional observations from a re-analysis of the deposited data

Results flagged for a closer look

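Among the 4 MYC animals, 16 sets of levels were screened for 1 animal far from the other 3. Chance alone does this in about 1 of 20 sets of normally distributed levels. Several of the levels here are 0 or rest on few UMIs, so that rate need not hold for them. Over all cells, MYC replicate 4 stood apart for Ccl17, at 401 CPM against 34.2, 16.6 and 8.44 CPM, and for Ccl22, at 82.2 CPM against 1.92, 0 and 9.35 CPM. That library also had the largest share of dendritic cells among the MYC libraries, and its part in these values was not tested. In non-haematopoietic cells it stood apart for Ccl22 (44.9 CPM against 0, 0 and 1.02 CPM) and for Ccr7 (67.4 CPM against 0, 1.32 and 6.90 CPM), where 3 cells with mature dendritic markers held 32 of 33 Ccr7 UMIs. In macrophages and microglia, MYC replicate 5 stood apart for Ccr7, at 24.7 CPM against 0 CPM in each of the other 3. The 2.05 CPM of Ccr4 in macrophages of MYC replicate 4, against 0, 0 and 0.324 CPM, is a single UMI.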

How the results depend on the processing

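Leaving out each animal in turn moved the log2 differences between dendritic cells and macrophages from 2.90 to 4.84 for Ccl17 (lost without SHH replicate 1 or SHH replicate 2), from 4.52 to 5.40 for Ccl22 and from 5.29 to 7.07 for Ccr7. For mature against other dendritic cells the ranges were 1.80 to 2.92 for Ccl17 (lost without MYC replicate 4, at 2.12), 5.16 to 6.09 for Ccl22 and 5.84 to 6.70 for Ccr7. For T cells against cells outside the T gate they were 3.56 to 4.41 for Ccr4, 0.896 to 2.23 for Ccr7, -5.08 to -3.14 for Ccl17 and -3.32 to -2.36 for Ccl22 (lost without MYC replicate 4, at -2.49). Between MYC and SHH they were -0.54 to 0.34 for Ccr7 in T cells (0.00032 without MYC replicate 1, 0.201 without MYC replicate 5 and 0.342 without SHH replicate 1), and in dendritic cells -5.40 to -1.10 for Ccl17, 0.0754 to 1.28 for Ccl22 and 0.873 to 1.58 for Ccr7. Over all cells they were -1.93 to 1.73 for Ccl17, -1.12 to 3.94 for Ccl22, and -0.58 to 2.76 for Ccr7, negative only without MYC replicate 4, and 1.14 to 2.74 for Ccr4, which had too few UMIs to be tested without MYC replicate 1 or MYC replicate 4. In non-haematopoietic cells they were 1.17 to 2.18 for Ccl17 and 4.88 to 6.19 for Ccr7, which could not be tested without MYC replicate 4 or MYC replicate 5. For Foxp3+ against other T cells no animal could be left out of 2.

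Without the replicate block (the animal) Ccl17 lost its call between dendritic cells and macrophages (3.27, adjusted p = 0.209) and between mature and other dendritic cells (1.56, adjusted p = 0.729), Ccr7 in Foxp3+ against other T cells turned to -0.28, and the calls over all genes were 0 in place of 147 for Foxp3+ T cells, 492 in place of 1035 for dendritic cells, 116 in place of 667 for mature cells and 661 in place of 2005 for T cells. Against conventional CD4 T cells alone, Ccr7 in Foxp3+ T cells was -1.01 (adjusted p = 0.464). Without doublet removal Ccl17 in dendritic cells against macrophages was 3.64 (adjusted p = 0.0596). DESeq2 gave -2.01 for Ccl22 in T cells. Between MYC and SHH, Ccr7 in T cells was 0.0267 with conflicting barcodes added, and in dendritic cells Ccl17 was -1.92 and past the threshold without the filter on low counts, while Ccl22 was -0.18 with gates of 10 cells and -0.0543 with the mature gate freed of MHC class II. With that gate Ccr7 there was 0.165. Thinned to 1000 UMIs, shares of mature cells moved beyond their interval for Ccl17 in MYC replicate 5 (7.738%), for Ccl22 in MYC replicates 4 (58.54%) and 5 (32.14%) and for Ccr7 in both (82.93% and 60.71%). The causes were not tested.

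Counts of genes called moved by over 1.5 times under other settings too. Foxp3+ T cells had 11 by DESeq2, 9 against CD4 T cells, and 23, 38 and 77 with conflicting barcodes, 1 more marker UMI and 10 cells. Dendritic cells against macrophages had 1677 without the filter. Mature dendritic cells had 328 by DESeq2, 188 with 1 more marker UMI, 441 without doublet removal and 247 to 377 without an animal, and T cells 980 to 3127 without an animal. MYC against SHH gave 19 without the filter and up to 7 without an animal in T cells, 123 and up to 461 in dendritic cells, 5 and up to 2 in all cells (768 by DESeq2, in place of 1), and 1553 by DESeq2 in non-haematopoietic cells, with 1 to 699 without an animal in place of 468. Ccr4 rests on 123 UMIs, which limits every statement on it.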
